A study of Mus musculus with 16 samples.

Results

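The transcripts described here encode the synaptic vesicle release machinery of mouse cortical neurons. The set held 52 genes, chosen by symbol from the 41388 genes counted in each library. It comprised 12 genes of the calcium sensor families (synaptotagmins, Doc2 proteins and rabphilin), 11 SNAREs and SNARE regulators, 6 priming factors, 13 active zone scaffolds and Rab3 proteins, and 10 vesicle membrane proteins, synapsins and vesicular glutamate transporters. The first group is called calcium sensors as a family label only, since Syt11 and Syt12 encode synaptotagmins without the usual calcium-binding residues. All 52 had a row in every library and passed the filter on low counts, so none was dropped. The symbols were listed by function, with earlier results of these data known.

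Total RNA, depleted of ribosomal RNA with Ribo-Zero, was sequenced from cultured cortical neurons of Swiss Webster mouse embryos (embryonic day 16). After 5 days in vitro the neurons were given 2 lentiviruses, which carried exon 1 of huntingtin (Htt) and a short hairpin RNA (shRNA), and they were harvested at 10 days in vitro. The 4 groups, with n = 4 libraries each, were 72Q with Twist1 shRNA 1, 72Q with Twist1 shRNA 2, 72Q with a control shRNA against luciferase, and 25Q with the same control shRNA. Here 72Q and 25Q are the lengths of the glutamine tract in exon 1, 72 in the mutant form and 25 in the wild-type form. All groups therefore overexpress an Htt fragment and a hairpin, none is untransduced, and no library combines 25Q with a Twist1 shRNA. Each of 4 experiments (exp107, exp108, exp109a and exp109b) supplied 1 library of every group, and values of single libraries are given in that order. The labels do not state whether exp109a and exp109b came from separate dissections, and in 3 of the 4 groups their counts were the closest pair by a chi-square over genes. Nothing beyond these experiment labels states how the cultures of a group were kept apart, so the p-values reflect spread among these samples that may be technical. The series asks what Twist1, a basic helix-loop-helix transcription factor, contributes to the transcript changes seen with mutant Htt.

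Neurotransmitter release begins when an action potential opens calcium channels beside docked vesicles at the active zone, a scaffold built from RIM, RIM-binding protein, Munc13, ELKS, liprin-alpha, bassoon and piccolo. Munc13 and CAPS proteins prime the vesicle, the SNARE proteins syntaxin, SNAP-25 and synaptobrevin zipper together, complexin holds and then assists the complex, and synaptotagmin triggers fusion on binding calcium. NSF and its SNAP adaptors then take the SNARE complex apart, while synapsins, SV2 proteins, synaptophysins and neurotransmitter transporters belong to the vesicle itself. Most cortical excitatory neurons load glutamate with VGLUT1 (Slc17a7), and VGLUT2 (Slc17a6) is more typical of subcortical and immature neurons.

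Library totals ranged from 15814525 to 19533034 counts. The targeted gene, Twist1, had 1.82, 1.69, 0.904 and 1.87 CPM with Twist1 shRNA 1 in 72Q, 1.40, 2.19, 1.29 and 1.70 CPM with shRNA 2 in 72Q, 3.29, 5.08, 3.84 and 4.39 CPM in 72Q control neurons, and 0.29, 0.55, 0.245 and 0 CPM in 25Q control neurons. CPM relate counts to the library total and are scaled here by TMM factors (trimmed mean of M values), and a count of 0 in the last library still allows up to 0.176 CPM before that scaling. Every 72Q control library was above every library of the other 3 groups. Pan-neuronal marker transcripts (12 genes) summed to 10006 ± 539 CPM with shRNA 1, 8126 ± 605 CPM with shRNA 2, 9571 ± 693 CPM in 72Q control and 12501 ± 779 CPM in 25Q control neurons (SD, n = 4), far above the non-neuronal lists. Astrocyte markers (9 genes) lay between 2168 and 3040.3 CPM in single libraries, whereas the 8 microglial markers summed to at most 13.2 CPM and 10 endothelial, mural and meningeal markers to at most 30.2 CPM. Mitochondrial transcripts made up 2.39 to 3.26% of counts with shRNA 1, 2.10 to 2.78% with shRNA 2, 3.16 to 3.59% in 72Q control and 2.41 to 2.78% in 25Q control neurons. In bulk RNA, fewer cells of a type and less RNA per cell cannot be told apart, and this holds for every level given here.

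Promoters are shown here for 3 genes with 1 window each, picked after their values were seen. Slc17a7 rose with Twist1 shRNA 1 and differed between the hairpins. Cplx1 (complexin 1) and Bsn (bassoon) fell with shRNA 2 and differed between the hairpins. RefSeq windows from 250 bases before to 50 after the transcription start (GRCm38.p6) were found for 40 of the 52 genes, giving 53 windows. Each window is printed 5′ to 3′ on the gene's strand, and capitals mark CANNTG, the E-box core that basic helix-loop-helix factors such as Twist1 can bind. The windows are chr7:45163671-45163970 on the plus strand for Slc17a7, chr5:108549978-108550277 on the minus strand for Cplx1 and chr9:108190334-108190633 on the minus strand for Bsn.
Slc17a7: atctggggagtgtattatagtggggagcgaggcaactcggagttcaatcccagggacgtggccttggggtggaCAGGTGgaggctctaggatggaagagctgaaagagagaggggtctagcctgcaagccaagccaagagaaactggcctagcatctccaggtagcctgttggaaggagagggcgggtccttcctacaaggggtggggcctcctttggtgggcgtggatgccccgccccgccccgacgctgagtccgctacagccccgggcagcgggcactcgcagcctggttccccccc
Cplx1: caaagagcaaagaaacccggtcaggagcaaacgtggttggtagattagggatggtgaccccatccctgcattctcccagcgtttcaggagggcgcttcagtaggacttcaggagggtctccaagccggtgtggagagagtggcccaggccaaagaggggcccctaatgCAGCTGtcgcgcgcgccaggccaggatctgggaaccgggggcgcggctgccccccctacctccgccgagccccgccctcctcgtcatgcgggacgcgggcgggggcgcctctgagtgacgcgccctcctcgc
Bsn: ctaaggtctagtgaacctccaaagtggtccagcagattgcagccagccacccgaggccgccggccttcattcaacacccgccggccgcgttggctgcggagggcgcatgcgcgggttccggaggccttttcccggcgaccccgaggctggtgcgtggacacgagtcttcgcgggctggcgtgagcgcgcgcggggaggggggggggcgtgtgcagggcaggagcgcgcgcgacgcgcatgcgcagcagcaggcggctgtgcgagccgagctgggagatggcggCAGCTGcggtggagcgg
Each of these windows held 1 E-box core, CAGGTG in Slc17a7 and CAGCTG in both Cplx1 and Bsn. An E-box core (CANNTG, counted on both strands) stood in 79.25% of the release machinery windows and in 72.31% of all 32851 windows of the table. CAGCTG, a subset of CANNTG, was in 28.3% of the release machinery windows and 16.3% of all windows. CATATG and CAGATG, also within CANNTG, were in 3.77% and 13.2% of the set's windows, against 3.92% and 17.2% of all windows. The GC-box GGGCGG, on either strand, was in 67.92% of the set's windows and 35.66% of all, beside a median GC content of 62.3% against 52.7%. These matches describe letters in a window and say nothing of binding.

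Among the 52 genes, levels per listed gene length differed widely. RPKM values (TMM-scaled CPM per kilobase of listed gene length) set genes against each other only as far as that length fits the transcripts present. In 25Q control neurons the highest was Vamp2, the vesicle SNARE synaptobrevin 2, at 302 ± 28.5 RPKM, followed by Rab3a at 272 ± 24.9 and Cplx1 at 243 ± 14.8 RPKM (SD, n = 4). Vamp2 and Rab3a, the main vesicle-bound Rab3 GTPase, did not differ beyond their spread. The lowest were Syt6 at 0.722 ± 0.143, Syt12 at 0.936 ± 0.0514 and Baiap3 at 0.982 ± 0.181 RPKM. Gene span ran from 3895 bases for Vamp2 to 856096 bases for Erc2, with a median of 66619. Some members share exon bases with a gene on the opposite strand. Among them are Doc2a with Ino80e (1103 bases), Syn3 with Timp3 (1733 bases), Unc13a with Colgalt1 (495 bases) and Baiap3 with Tsr3 (140 bases). How reads in these shared stretches were assigned is not known, because the sources used here do not give the strand setting of the counting.

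**Figure D1:**
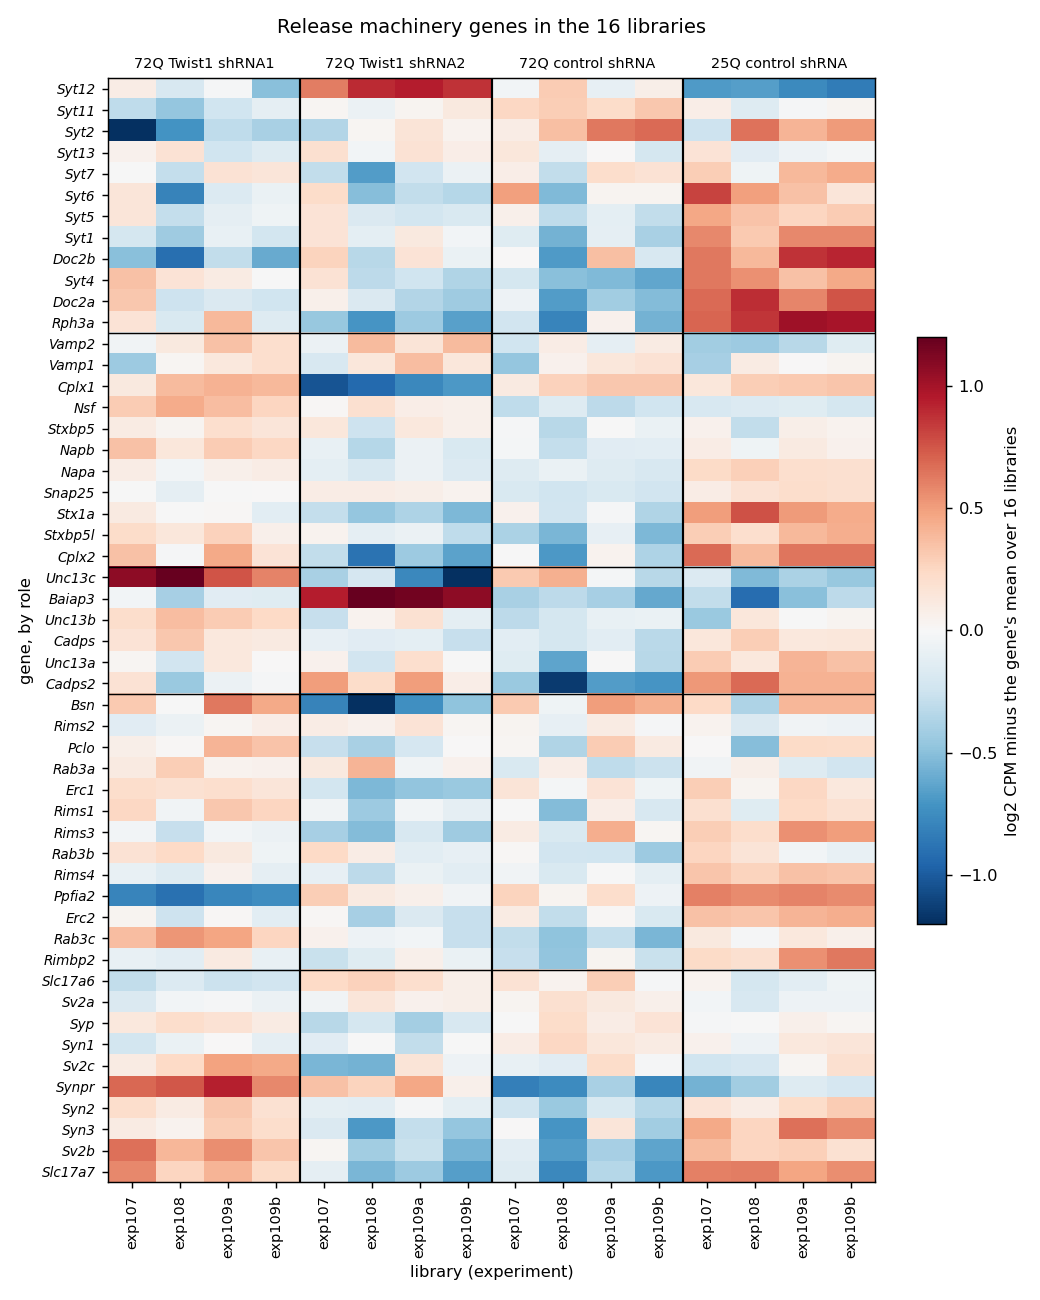
Heat map of the 52 release machinery genes (rows, grouped by role) in the 16 libraries (columns, 4 experiments within each of the 4 groups), coloured by log2 CPM minus the gene's mean over all libraries. Colours saturate at the ends of the scale. Rph3a, Doc2a and Stx1a are highest in the 25Q control columns, Cplx1 and Bsn are lowest in the shRNA 2 columns, and Ppfia2 is lowest in the shRNA 1 columns.

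With mutant Htt, most of the 52 genes of this set were at a lower level. In 72Q control against 25Q control neurons, 31 of the 52 genes fell, 7 rose and 14 were not called, with a median log2 fold change of -0.29 (lowest -1.28 for Rph3a, highest 0.79 for Syt12). Fold changes are given on the log2 scale ± SE. The words rose and fell are used where a gene's adjusted p, from edgeR's quasi-likelihood test with Benjamini-Hochberg adjustment over 15103 genes, was under 0.05. Over all genes tested, 27.8% fell and 29.3% rose in this comparison, and the median was 0.03. The set's summed level was 13391 ± 488 CPM in 72Q control and 15895 ± 614 CPM in 25Q control neurons (SD, n = 4). Without TMM scaling the median of all genes was 0.16, and the split was 27 fallen and 14 risen.

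Among the calcium sensors, 8 of 12 fell and 2 rose. Rph3a, rabphilin, an effector of Rab3 on vesicles (ENSMUSG00000029608, chr5:120940502-121009518), had 115, 77.8, 139.5 and 91.1 CPM in 72Q control and 219, 245, 274 and 268 CPM in 25Q control neurons; coordinates are those of the deposited files on GRCm38. The 72Q control libraries were all below the 25Q control libraries (exp108 was the lowest of them), and the fold change was -1.28 ± 0.12 (adjusted p = 2.61e-06).
Syt1, the sensor of fast synchronous release (ENSMUSG00000035864, chr10:108497650-109010982), had 889, 666, 913 and 749.6 CPM in 72Q control and 1468, 1225, 1464 and 1464 CPM in 25Q control neurons. The groups did not overlap, and the fold change was -0.81 ± 0.048 (adjusted p = 1.2e-14). Doc2a and Doc2b, high-affinity sensors linked to spontaneous and asynchronous release, fell as well, with fold changes of -1.14 and -0.81, as did Syt4 (-0.97) and Syt5 (-0.51). The rises were those of Syt12, at 9.05 ± 1.13 CPM in 72Q control and 5.19 ± 0.285 CPM in 25Q control neurons (0.79 ± 0.12, adjusted p = 2.08e-06), and Syt11 (0.29 ± 0.048), both of which encode synaptotagmins without the usual calcium-binding residues. Syt2, which replaces Syt1 in some fast synapses, and Syt13 were not called, at 0.099 and -0.03.

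Of the 11 SNAREs and SNARE regulators, 6 fell and 1 rose. Cplx2 (complexin 2; ENSMUSG00000025867, chr13:54371349-54383917) had 642, 399, 662 and 499 CPM in 72Q control and 1031, 836, 1005 and 1003 CPM in 25Q control neurons. All 72Q control libraries lay below the 25Q control libraries, and the fold change was -0.84 ± 0.059 (adjusted p = 7.56e-12). Its paralog Cplx1 (ENSMUSG00000033615, chr5:108518554-108550024) had 476, 534, 551 and 552 CPM in 72Q control and 485, 541, 549 and 556 CPM in 25Q control neurons. These groups overlapped almost entirely, with exp107 lowest in both, and the difference was -0.014 (95% interval -0.10 to 0.074, adjusted p = 0.801). Without scaling it was 0.12 and called higher (adjusted p = 0.0119).
The plasma membrane SNAREs also fell, Stx1a (syntaxin 1A) to 254 ± 32.9 CPM in 72Q control, against 408 ± 41.9 CPM in 25Q control neurons (-0.69 ± 0.06, adjusted p = 6.2e-10), and Snap25 (SNAP-25) to 578 ± 11.8, against 749 ± 26.7 CPM (-0.37 ± 0.042, adjusted p = 9.54e-09). The vesicle SNARE gene Vamp2 was the member that rose, with 1409.9 ± 159 CPM in 72Q control and 1151 ± 109 CPM in 25Q control neurons (0.29 ± 0.067, adjusted p = 0.000914), although single libraries overlapped. Stxbp5l, tomosyn-2, an inhibitor of SNARE assembly, fell (-0.72), and so did Napa and Napb, the adaptors of NSF (-0.37 and -0.19). Nsf itself was not called (-0.074).

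Among 6 priming factors, 3 fell and 1 rose. Unc13a, Munc13-1, the main priming factor of glutamatergic synapses, had 458, 325, 503 and 401 CPM in 72Q control and 623, 549.8, 669 and 643 CPM in 25Q control neurons, without overlap (-0.57 ± 0.048, adjusted p = 2.8e-11). Cadps2, CAPS-2, which primes dense-core vesicles, fell to 13.4 ± 2.57 CPM in 72Q control, against 31.5 ± 2.73 CPM in 25Q control neurons (-1.23 ± 0.12, adjusted p = 1.16e-07), and Cadps (CAPS-1) fell too (-0.37). Unc13c, Munc13-3, best known from cerebellum, rose by 0.48 ± 0.12 (adjusted p = 0.00205) with overlapping libraries, a call that was lost without the experiment block (0.49, adjusted p = 0.0832). Baiap3, a Munc13-like protein, was not called (0.055).

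Of 13 active zone and Rab3 genes, 9 fell and 1 rose. Rimbp2, which couples RIM to calcium channels, fell (-0.65 ± 0.062), and Rab3c, Erc2 (ELKS2) and Ppfia2 (liprin-alpha 2) each had a fold change of -0.47 past the threshold. Rims1, the central RIM scaffold, had 156, 109, 165 and 137 CPM in 72Q control and 179, 142, 186 and 178 CPM in 25Q control neurons. In every experiment the 72Q library was lower, and exp108 was lowest in both groups, which overlapped. The fold change was -0.28 ± 0.046 (adjusted p = 5.83e-06), and without the experiment block the gene was not called (-0.27, adjusted p = 0.0843). Bsn, one of the giant scaffolds, rose by 0.13 ± 0.054 (adjusted p = 0.0437), with overlapping libraries. That call was lost with RLE factors, without the experiment block and with a block by title number. Pclo (piccolo) was not called (0.028). Erc1 (ELKS1) fell (-0.11) but was at 0.02 and not called without scaling.

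Of the 10 vesicle genes, 5 fell and 2 rose. Slc17a7 (ENSMUSG00000070570, chr7:45163921-45176138) had 326, 212, 286 and 225 CPM in 72Q control and 552, 555, 504 and 534 CPM in 25Q control neurons. No library of one group reached the other, and the fold change was -1.05 ± 0.083 (adjusted p = 4.06e-08). Slc17a6 (ENSMUSG00000030500, chr7:51621830-51671125) rose, with 87.4, 80.1, 95.3 and 77.1 CPM in 72Q control and 80.1, 66.9, 71.1 and 74.9 CPM in 25Q control neurons, overlapping in single libraries but higher with 72Q in each experiment (0.21 ± 0.061, adjusted p = 0.00396). Sv2b, an SV2 isoform of excitatory forebrain neurons, fell (-0.73 ± 0.053), and so did Syn2 and Syn3, synapsins that hold vesicles in the reserve pool (-0.50 and -0.71). Sv2a, the isoform found in nearly all synapses, rose (0.18 ± 0.048), while Syn1 and Syp (synaptophysin) were not called, at 0.077 and 0.099.

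**Figure D2:**
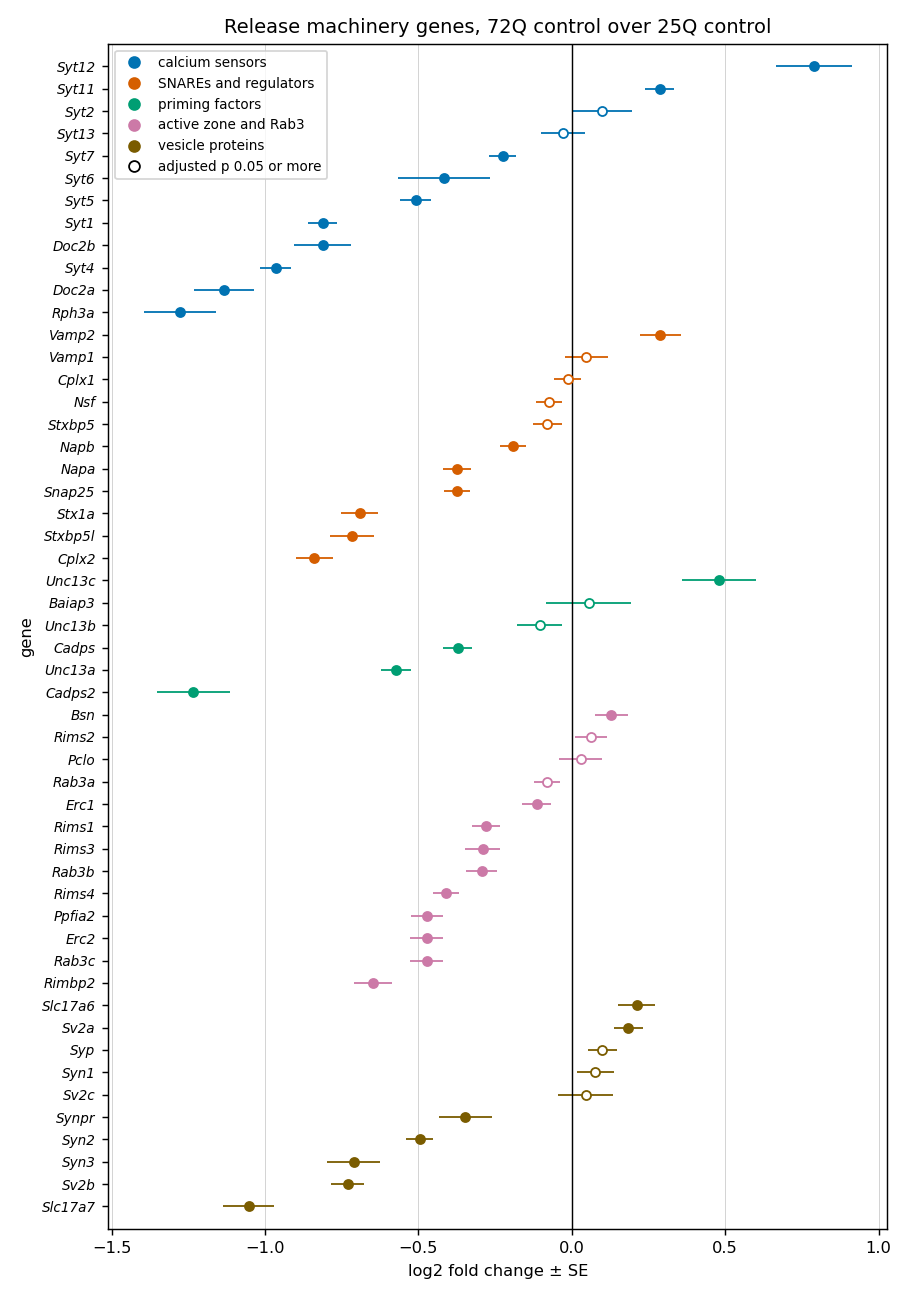
Log2 fold change ± SE of each of the 52 genes in 72Q control over 25Q control neurons (n = 4 libraries each), grouped and coloured by role; filled points have an adjusted p under 0.05 and open points do not. Most points outside the vesicle group lie left of 0, down to -1.28 for Rph3a, and Syt12 (0.79) lies farthest right.

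Cell type markers moved in the same comparison, where 27.8% of all genes tested fell and 29.3% rose. All 7 glutamatergic neuron markers fell, their sum being 779 ± 125 CPM in 72Q control and 1501 ± 51.7 CPM in 25Q control neurons. Of 12 pan-neuronal markers 7 fell and 1 rose, of 10 GABAergic markers 8 fell and 1 rose, and of 9 astrocyte markers 5 rose and none fell. Of 8 progenitor and dividing cell markers 4 rose and none fell, and of 8 oligodendrocyte lineage markers 2 rose and 2 fell. Their part in the fall of the release genes was not tested. In 2 further lists of the same pathway, 13 of 31 tested genes of other release machinery fell and 3 rose (median -0.089), while 8 of 30 genes of vesicle endocytosis, clathrin uncoating and acidification fell and 9 rose (median 0.03). Slc32a1, the vesicular GABA transporter, stands both in that first list and among the GABAergic markers.

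Within 72Q neurons, Twist1 shRNA 1 was accompanied by higher levels of many genes of this set. A further list of other release machinery did not share this, with 6 of 31 risen and 8 fallen. Of the 52 genes 29 rose, 8 fell and 15 were not called, with a median log2 fold change of 0.20, where 22.7% of all genes tested rose and 23.6% fell (median -0.0054). With Twist1 shRNA 2 the split was nearly even: 17 rose, 14 fell and 21 were not called, with a median of 0.057, where 20.2% of all genes rose and 21.5% fell (median 0.0015). The summed level of the set was 14989 ± 639 CPM with shRNA 1, 13257 ± 159 CPM with shRNA 2 and 13391 ± 488 CPM in 72Q control neurons (SD, n = 4). Both comparisons and the one with 25Q share the 72Q control libraries, so their fold changes are not independent and are only set side by side. Without scaling, shRNA 2 gave 26 risen and 13 fallen, where the median of all genes was 0.075.

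**Figure D3:**
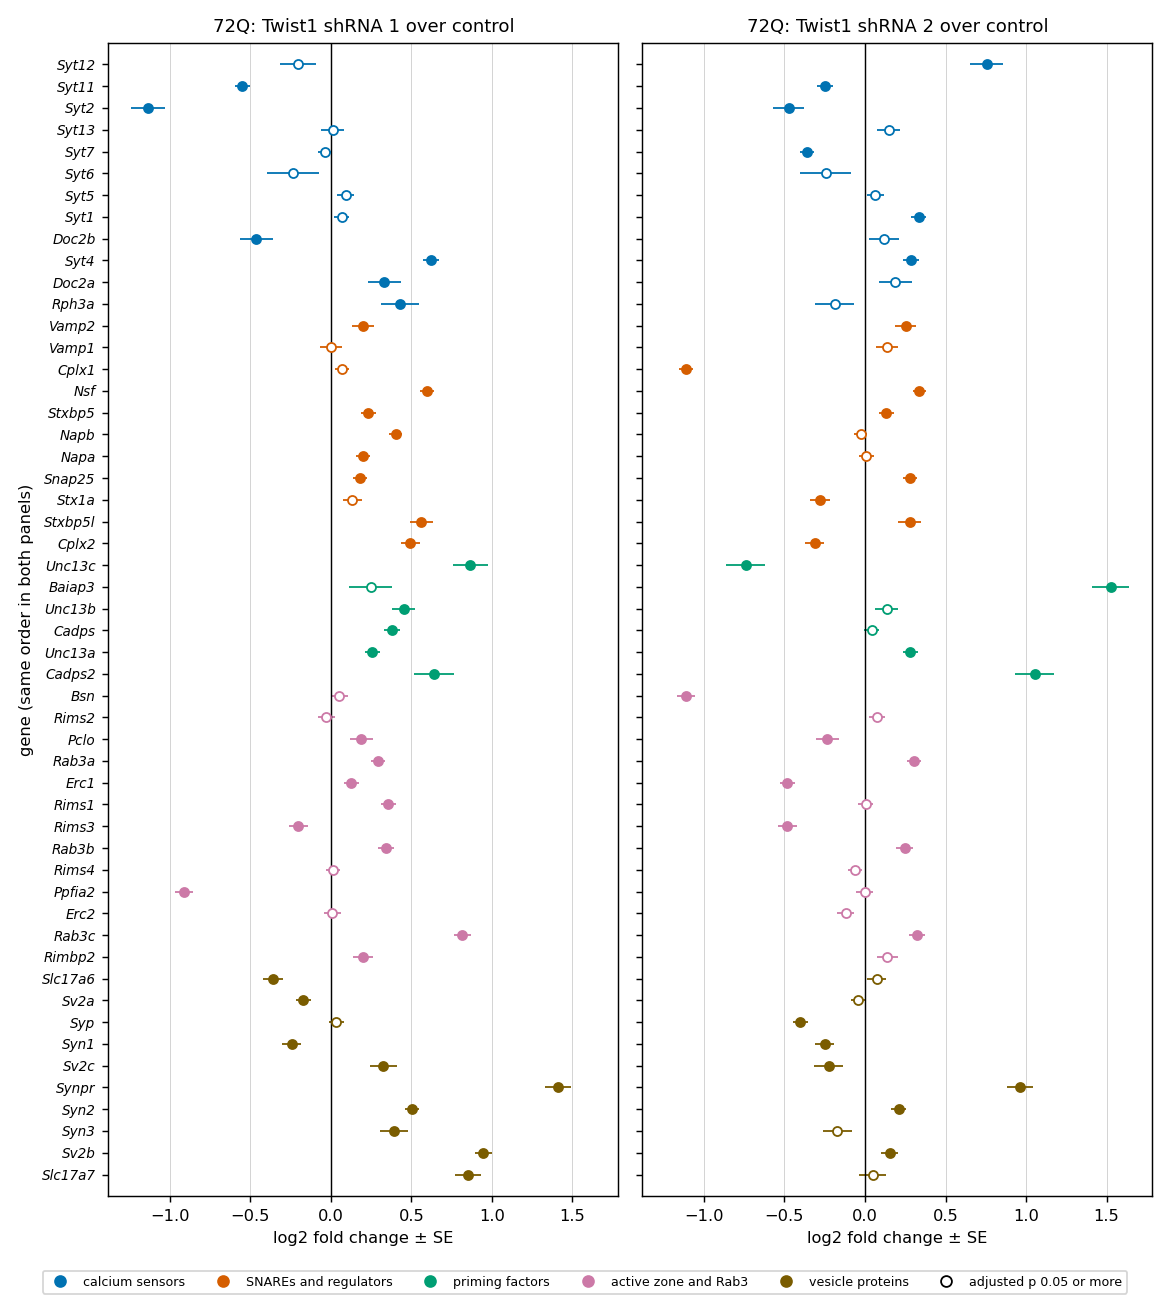
Log2 fold change ± SE of the 52 genes in 72Q neurons with Twist1 shRNA 1 (left) and Twist1 shRNA 2 (right) over 72Q control neurons, n = 4 libraries each, in 1 gene order and coloured by role; filled points have an adjusted p under 0.05. Synpr lies right of 0 in both panels (1.41 and 0.96), Cplx1 and Bsn lie at -1.11 in the right panel, and Ppfia2 lies at -0.91 in the left panel.

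Calcium sensors showed no common direction, with 3 of 12 risen and 3 fallen under either hairpin. These counts lay near the shares over all genes tested, 22.7% risen and 23.6% fallen with shRNA 1. The shares were 20.2% and 21.5% with shRNA 2. Syt1 had 851, 734, 926 and 844 CPM with shRNA 1, 1101, 908, 1068 and 961 CPM with shRNA 2 and, as stated, 666 to 913 CPM in 72Q control neurons. It was not called with shRNA 1 (0.067, 95% interval -0.03 to 0.16, adjusted p = 0.261) and rose with shRNA 2 (0.33 ± 0.047, adjusted p = 1.17e-06). Syt4 rose with both, by 0.62 and 0.29, and Syt11 fell with both (-0.55 and -0.25).
Syt2 had 7.99, 14.1, 18.8 and 17.7 CPM with shRNA 1, 18.1, 23.5, 25.8 and 23.9 CPM with shRNA 2 and 24.6, 29.8, 36.0 and 37.0 CPM in 72Q control neurons. All shRNA 1 libraries were below all control libraries (-1.13 ± 0.10, adjusted p = 2.01e-08), whereas with shRNA 2 the ranges overlapped (-0.47 ± 0.098, adjusted p = 0.000547), a call lost without the experiment block (-0.48, adjusted p = 0.136). Syt12 rose with shRNA 2, with 13.2, 16.0, 16.5 and 15.8 CPM against 8.41, 10.6, 8.08 and 9.08 CPM in 72Q control neurons (0.76 ± 0.10, adjusted p = 4.59e-07), and was not called with shRNA 1 (-0.20 ± 0.11). Rph3a rose with shRNA 1 (0.43 ± 0.12, adjusted p = 0.0114) and was not called with shRNA 2 (-0.19 ± 0.12), and Doc2b fell with shRNA 1 (-0.46 ± 0.1) but not past the threshold without the experiment block (-0.48, adjusted p = 0.0727).

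Complexins separated the hairpins. Cplx1 had 478, 572, 589 and 579 CPM with shRNA 1 and 215, 230.4, 258 and 273 CPM with shRNA 2. All 4 shRNA 2 libraries were below every library of the other groups. The fold change over 72Q control neurons was -1.11 ± 0.044 (adjusted p = 3.82e-18) with shRNA 2 and 0.069 (95% interval -0.019 to 0.16, adjusted p = 0.196) with shRNA 1. Cplx2 had 819, 639, 883 and 722 CPM with shRNA 1 and 523, 348, 476 and 413 CPM with shRNA 2. Against 72Q control neurons it rose with shRNA 1 (0.49 ± 0.059, adjusted p = 1.49e-07) and fell with shRNA 2 (-0.31 ± 0.059, adjusted p = 0.000118), in both cases with overlapping libraries but 1 sign in all 4 experiments. Without the experiment block the fall with shRNA 2 was not called (-0.32, adjusted p = 0.136).
Of the 11 SNARE genes, complexins included, 8 rose and none fell with shRNA 1, led by Nsf, the ATPase that recycles SNAREs, at 576 ± 31.5 CPM with shRNA 1 and 380.4 ± 20.2 CPM in 72Q control neurons (0.60 ± 0.042, adjusted p = 8.92e-13). With shRNA 2, 5 rose and 3 fell, and Nsf rose by 0.34 ± 0.042. Snap25 rose with both hairpins, to 654 ± 23.5 CPM with shRNA 1 and 702 ± 9.39 CPM with shRNA 2, by 0.18 and 0.28. Vamp2 rose by 0.20 and 0.25, the call with shRNA 1 being lost without the exp109a library of shRNA 1 (0.12, adjusted p = 0.11) or of the 72Q control (0.16, adjusted p = 0.0751). Stx1a was not called with shRNA 1 (0.13 ± 0.06, past the threshold under 5 alternatives, among them leaving out exp107 or exp109a of the 72Q control) and fell with shRNA 2 (-0.28 ± 0.061, adjusted p = 0.000569).

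Of the priming factors, 5 of 6 rose and none fell with shRNA 1, and 3 rose and 1 fell with shRNA 2. Unc13c had 32.4, 41.5, 26.0 and 23.3 CPM with shRNA 1, 11.8, 13.4, 9.05 and 6.10 CPM with shRNA 2 and 19.2, 20.8, 15.2 and 12.3 CPM in 72Q control neurons. It was highest with shRNA 1 (0.86 ± 0.11, adjusted p = 1.22e-06) and fell with shRNA 2 (-0.74 ± 0.12, adjusted p = 4.68e-05). Baiap3 had 6.88, 5.32, 6.38 and 6.36 CPM with shRNA 1, 13.5, 17.1, 15.6 and 14.7 CPM with shRNA 2, 5.37, 5.66, 5.31 and 4.59 CPM in 72Q control and 5.73, 3.73, 4.97 and 5.65 CPM in 25Q control neurons. The shRNA 2 libraries stood above all others (1.53 ± 0.12, adjusted p = 4.51e-12 over 72Q control neurons), and shRNA 1 was not called (0.25 ± 0.13). Cadps2 rose with both, by 0.64 and 1.05, and so did Unc13a, by 0.26 and 0.28, though neither Unc13a call held without the experiment block (adjusted p = 0.124 and 0.101).

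At the active zone, 7 of 13 genes rose and 2 fell with shRNA 1, while 3 rose and 4 fell with shRNA 2. Bsn (ENSMUSG00000032589, chr9:108096022-108190384) had 339, 273, 424 and 375 CPM with shRNA 1, 156, 115, 164 and 195 CPM with shRNA 2, 339.9, 264, 387 and 368 CPM in 72Q control and 323, 212, 359.6 and 361 CPM in 25Q control neurons. The shRNA 2 libraries lay below every other library, at -1.11 ± 0.055 (adjusted p = 1.93e-15) against 72Q control neurons, and shRNA 1 was not called (0.052, 95% interval -0.059 to 0.16, adjusted p = 0.459). Pclo, its close relative, rose with shRNA 1 (0.19 ± 0.071) and fell with shRNA 2 (-0.23 ± 0.071), as did Erc1 (0.13 ± 0.047 and -0.48 ± 0.048).
Ppfia2 (ENSMUSG00000053825, chr10:106470310-106933467) had 94.8, 88.5, 95.8 and 98.1 CPM with shRNA 1, 202, 178, 172 and 159.5 CPM with shRNA 2, 197, 168, 190.4 and 157 CPM in 72Q control and 251, 244, 248 and 244 CPM in 25Q control neurons. Here the shRNA 1 libraries were the lowest (-0.91 ± 0.055, adjusted p = 3.9e-14), and shRNA 2 did not separate from the control (-0.0025, 95% interval -0.11 to 0.11, adjusted p = 0.976). Rab3c, a Rab3 isoform of neurons, rose with both hairpins, by 0.81 and 0.32, and Rims3, a short RIM without the Rab3-binding part, fell with both (-0.20 and -0.48). Rims1 rose with shRNA 1 (0.36 ± 0.046, adjusted p = 1.62e-07) and was not called with shRNA 2 (0.0043).

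Among vesicle genes, 6 of 10 rose and 3 fell with shRNA 1, and 3 rose and 3 fell with shRNA 2. Synpr, synaptoporin, a synaptophysin relative (ENSMUSG00000056296, chr14:13284780-13615459), had 29.3, 30.5, 34.6 and 27.1 CPM with shRNA 1, 23.1, 21.9, 25.1 and 19.0 CPM with shRNA 2, 10.3, 10.8, 13.8 and 10.5 CPM in 72Q control and 12.3, 13.6, 16.3 and 15.8 CPM in 25Q control neurons. Both Twist1 shRNA groups were above all control libraries, by 1.41 ± 0.08 (adjusted p = 4.51e-15) with shRNA 1 and 0.96 ± 0.082 (adjusted p = 5.81e-11) with shRNA 2 over 72Q control neurons. Slc17a7 had 540.4, 435, 480.3 and 424 CPM with shRNA 1 and 336, 248, 269 and 229 CPM with shRNA 2. With shRNA 1 it was above every 72Q control library (0.85 ± 0.083, adjusted p = 6.64e-07), and with shRNA 2 it was not called (0.048, 95% interval -0.13 to 0.23, adjusted p = 0.691).
Slc17a6 had 63.4, 69.6, 65.0 and 66.3 CPM with shRNA 1 and 91.8, 94.3, 89.3 and 81.7 CPM with shRNA 2, lower than all 72Q control libraries with shRNA 1 (-0.36 ± 0.061, adjusted p = 1.65e-05) and not called with shRNA 2 (0.072 ± 0.06; called higher without scaling, 0.15, adjusted p = 0.0311). Sv2b rose with shRNA 1, to 371 ± 37.9 CPM against 194 ± 34.9 CPM in 72Q control neurons (0.94 ± 0.053, adjusted p = 7.08e-15), and by 0.15 with shRNA 2. Syn1 fell with both (-0.24 and -0.25) and Syn2 rose with both, by 0.50 and 0.21. Syp was not called with shRNA 1 (0.033 ± 0.047) and fell with shRNA 2 (-0.40 ± 0.047).

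**Figure D4:**
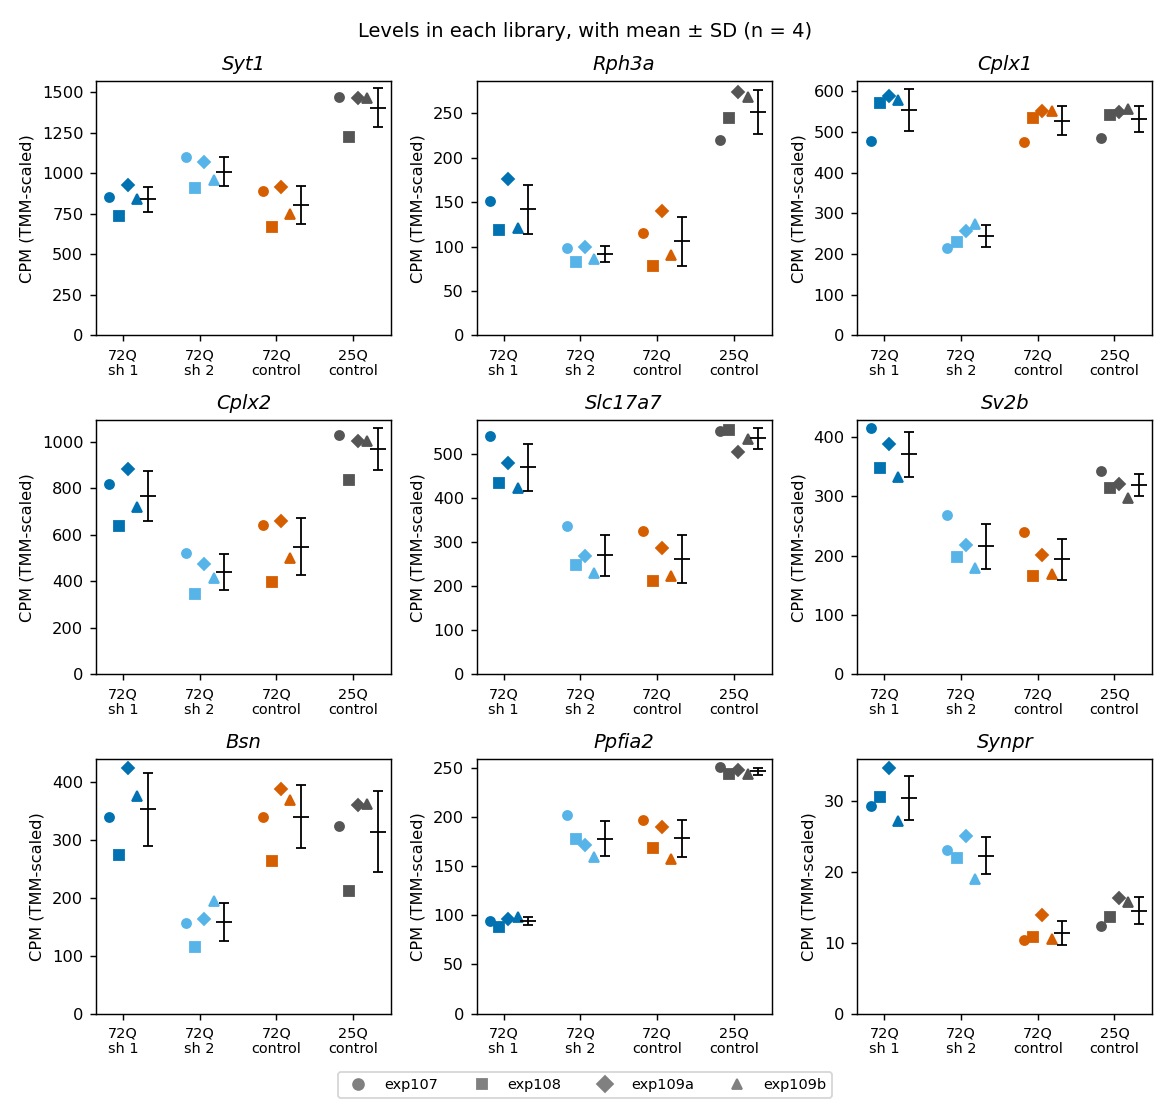
Levels of 9 release machinery genes in every library (CPM, TMM-scaled, axes from 0), by group and with the symbol giving the experiment; horizontal lines and whiskers are the mean ± SD of 4 libraries. Cplx1 and Bsn are lowest in the shRNA 2 libraries, Ppfia2 is lowest with shRNA 1, and Slc17a7 lies between 424 and 540.4 CPM with shRNA 1 and between 229 and 336 CPM with shRNA 2.

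Marker transcripts were counted under the hairpins as well. Of all genes tested, 22.7% rose and 23.6% fell with shRNA 1, and 20.2% rose and 21.5% fell with shRNA 2. With shRNA 1, 3 of 12 pan-neuronal markers rose and 1 fell, and 2 of 7 glutamatergic markers rose and 2 fell. Of 10 GABAergic markers 4 rose and 3 fell, and of 9 astrocyte markers 1 rose and 1 fell. Of 8 oligodendrocyte lineage markers 5 fell and none rose, and of 8 progenitor and dividing cell markers 2 fell and none rose. With shRNA 2, 2 pan-neuronal markers rose and 8 fell, 2 glutamatergic markers rose and 1 fell, and 3 GABAergic markers rose and 2 fell. Under that hairpin 6 astrocyte, 6 oligodendrocyte lineage and 6 progenitor and dividing cell markers fell, with none of these rising. Their part in the changes of the release genes was not tested. Other release machinery counted 6 risen and 8 fallen of 31 with shRNA 1, and 10 risen and 11 fallen with shRNA 2. Endocytosis genes counted 11 risen and 3 fallen of 30 with shRNA 1, and 8 risen and 10 fallen with shRNA 2.

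Since both hairpins target Twist1 and left it at levels that were not called different (-0.066, 95% interval -0.56 to 0.43, adjusted p = 0.826), they were also compared directly. With shRNA 1 against shRNA 2, 27 of the 52 genes were higher, 11 lower and 14 not called, with a median of 0.17. Of all genes tested 27.3% were higher and 25.9% lower (median 0.0046). The differences reached 1.61 ± 0.11 (adjusted p = 2.48e-10) for Unc13c, 1.18 ± 0.044 (adjusted p = 2.07e-19) for Cplx1, 1.17 ± 0.055 (adjusted p = 2.46e-16) for Bsn, 0.81 ± 0.059 (adjusted p = 1.93e-11) for Cplx2 and 0.80 ± 0.083 (adjusted p = 9.79e-07) for Slc17a7, and Sv2b was higher too (0.79 ± 0.053). In the other direction stood Baiap3 (-1.28 ± 0.11, adjusted p = 5.43e-11), Syt12 (-0.96 ± 0.10, adjusted p = 4.73e-09), Ppfia2 (-0.91 ± 0.055, adjusted p = 2.93e-14) and Slc17a6 (-0.43 ± 0.06, adjusted p = 7.46e-07).

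Syt2 and Doc2b were also lower with shRNA 1 than with shRNA 2 (-0.66 ± 0.11 and -0.58 ± 0.099), with overlapping libraries. Syt1, the fast sensor, was lower (-0.27 ± 0.047, adjusted p = 2.08e-05), while the SNARE gene Stx1a and the scaffold gene Rims1 were higher (0.41 ± 0.061, adjusted p = 3.21e-06, and 0.35 ± 0.046, adjusted p = 1.49e-07). Snap25 was lower by a margin close to the threshold (-0.10 ± 0.042, adjusted p = 0.0442), and that call was lost under 8 alternatives, among them no block, no filter and leaving out any of 5 single libraries (exp108, exp109a and exp109b of shRNA 1, exp107 and exp108 of shRNA 2), at -0.074 to -0.11. Vamp2 was not called (-0.055, 95% interval -0.19 to 0.084, adjusted p = 0.515), nor was Unc13a (-0.024, 95% interval -0.12 to 0.074, adjusted p = 0.705), which without scaling was called lower (-0.11, adjusted p = 0.0484). Higher with shRNA 1 were 7 of 11 SNARE genes, 7 of 10 vesicle genes and 7 of 13 active zone genes, as were 3 of 12 calcium sensors, while 5 calcium sensors were lower. Among markers, 9 of 12 pan-neuronal genes were higher and 2 lower, and 5 of 8 progenitor and dividing cell genes were higher and 1 lower. Of 7 glutamatergic markers 4 were higher and 1 lower, and of 10 GABAergic markers 3 were higher and 2 lower. Higher, with none lower, were 5 of 9 astrocyte and 6 of 8 oligodendrocyte lineage genes. The shares over all genes tested were 27.3% higher and 25.9% lower, and the part of the markers was not tested.

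How far 72Q neurons with a Twist1 shRNA stood from 25Q control neurons was examined next. With shRNA 1, 15 of the 52 genes were higher than in 25Q control neurons, 25 lower and 12 not called (median -0.084), where 28.1% of all genes were higher and 29.4% lower. With shRNA 2, 10 were higher, 33 lower and 9 not called (median -0.30), where 31.4% of all genes were higher and 31.8% lower. The split for shRNA 1 depended on scaling, with 20 higher and 21 lower under upper-quartile factors and 25 higher and 20 lower without scaling. The median of all genes moved as well, from 0.0097 with TMM factors to 0.093 and 0.13 under these settings. For shRNA 2 the split was 16 higher and 24 lower without scaling, where the median of all genes was 0.22 in place of 0.014. All of these comparisons share the 25Q control libraries with that of 72Q control neurons.

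Of the calcium sensors, 10 of 12 were lower with shRNA 1 than in 25Q control neurons, and 9 of 12 with shRNA 2. Syt1 was at -0.75 ± 0.048 (adjusted p = 4.57e-14) with shRNA 1 and -0.48 ± 0.047 (adjusted p = 4.63e-10) with shRNA 2, and Rph3a at -0.85 ± 0.12 and -1.47 ± 0.12. Larger differences with shRNA 1 were those of Doc2b (-1.27 ± 0.096; -0.69 ± 0.092 with shRNA 2) and Syt2 (-1.03 ± 0.11; -0.38 ± 0.1 with shRNA 2), and Doc2a was at -0.80 ± 0.095 with shRNA 1. Stx1a was lower in both (-0.56 and -0.97), while Vamp2 was higher in both, by 0.49 and 0.54, and so was Nsf, by 0.52 and 0.26. Snap25 was lower with shRNA 1 (-0.19 ± 0.042, adjusted p = 0.000235), a call lost without scaling (-0.067, adjusted p = 0.154). With shRNA 2 it was not called (-0.093, 95% interval -0.18 to -0.0074, adjusted p = 0.0536), and it was called higher without scaling (0.12, adjusted p = 0.012) but lower with DESeq2 (-0.093, adjusted p = 0.0408) and without each of 2 single libraries, exp108 of shRNA 2 (-0.11, adjusted p = 0.043) and exp107 of 25Q control (-0.13, adjusted p = 0.0124).
Ppfia2 had the lowest fold change of the set with shRNA 1 (-1.39 ± 0.055, adjusted p = 1.59e-18) and was at -0.48 ± 0.053 with shRNA 2, and Bsn was at -0.99 ± 0.055 with shRNA 2. Unc13a was lower with shRNA 1 (-0.31 ± 0.048, adjusted p = 1.87e-06). Under shRNA 2 it was also lower (-0.29 ± 0.048, adjusted p = 4.96e-06), a call lost without scaling (-0.081, adjusted p = 0.114) and without the experiment block (-0.29, adjusted p = 0.0505). Cplx1 was not called with shRNA 1 (0.055, 95% interval -0.033 to 0.14, adjusted p = 0.284), though it was called higher with upper-quartile factors (0.14, adjusted p = 0.00516) and without scaling (0.18, adjusted p = 0.00033). With shRNA 2 it was -1.13 ± 0.044 (adjusted p = 6.34e-19), and Cplx2 was -0.35 ± 0.059 and -1.15 ± 0.06.

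Slc17a7 was lower with shRNA 1 (-0.20 ± 0.082, adjusted p = 0.047), a call lost with every other scaling tried, without the experiment block, and without each of 6 single libraries (the 4 of shRNA 1 and those of exp108 and exp109b in 25Q control), at values between -0.13 and -0.21 for the last. With shRNA 2 it was -1.01 ± 0.083 (adjusted p = 4.53e-08). Slc17a6 was lower with shRNA 1 (-0.15 ± 0.062, adjusted p = 0.0421), in 3 of 4 experiments, and that call was lost under 10 alternatives, at values between -0.02 and -0.15. With shRNA 2 Slc17a6 was higher (0.28 ± 0.06, adjusted p = 0.000171). Rims1 was not called with shRNA 1 (0.076, 95% interval -0.017 to 0.17, adjusted p = 0.155), though it was called higher with upper-quartile factors (0.16, adjusted p = 0.00221) and without scaling (0.20, adjusted p = 0.000155). It was lower with shRNA 2 (-0.27 ± 0.046, adjusted p = 5.39e-06), which was lost without scaling (-0.065, adjusted p = 0.187) and without the experiment block (-0.27, adjusted p = 0.0735).

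Higher than in 25Q control neurons were Unc13c (1.34 ± 0.11) and Sv2c (0.37 ± 0.088) with shRNA 1, Baiap3 (1.58 ± 0.12) with shRNA 2, and Syt12 (0.59 ± 0.13 and 1.55 ± 0.11) and Synpr (1.06 ± 0.078 and 0.62 ± 0.08) with both. Glutamatergic markers were lower than in 25Q control neurons, in 6 of 7 with shRNA 1 and 7 of 7 with shRNA 2. Of 12 pan-neuronal markers 7 were lower and 3 higher with shRNA 1, and 10 were lower and 1 higher with shRNA 2. Of 10 GABAergic markers 6 were lower and 2 higher with shRNA 1, and 7 were lower and 3 higher with shRNA 2. Oligodendrocyte lineage markers were lower in 4 of 8 with shRNA 1 and 7 of 8 with shRNA 2, with none higher. Of 9 astrocyte markers 4 were higher and 1 lower with shRNA 1, and none was higher and 4 were lower with shRNA 2. Of 8 progenitor and dividing cell markers 3 were higher and 1 lower with shRNA 1, and none was higher and 2 were lower with shRNA 2. Their part was not tested.

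The balance between paralogs is given as a description, without a test, because the pairs were picked after their values were seen. The ratio of Slc17a7 to Slc17a6, each scaled to gene length, was 12.5, 9.19, 10.9 and 9.40 with shRNA 1, 5.39, 3.87, 4.42 and 4.12 with shRNA 2, 5.49, 3.89, 4.42 and 4.28 in 72Q control, and 10.1, 12.2, 10.4 and 10.5 in 25Q control neurons. The shRNA 1 and 25Q control libraries lay at 9.19 or more, and those of shRNA 2 and 72Q control at 5.49 or less. The ratio of Cplx1 to Cplx2 averaged 1.66 ± 0.312 with shRNA 1, 1.28 ± 0.269 with shRNA 2, 2.26 ± 0.611 in 72Q control and 1.25 ± 0.164 in 25Q control neurons (SD, n = 4).

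**Figure D5:**
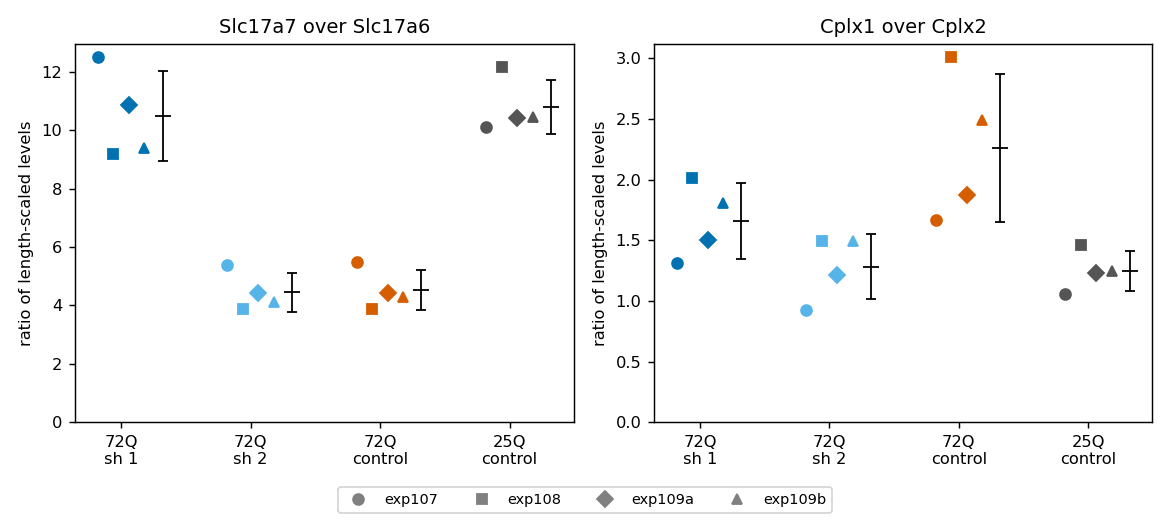
Ratio of length-scaled levels in each library for Slc17a7 over Slc17a6 (left) and Cplx1 over Cplx2 (right), by group, with the symbol giving the experiment and the mean ± SD of 4 libraries. The VGLUT1 to VGLUT2 ratio falls into a high range with shRNA 1 and 25Q control and a low range with shRNA 2 and 72Q control.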

How the data were processed

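RNA-seq was analysed from 16 libraries, 4 in each of 4 groups. Reads were aligned with STAR 2.0.4b to GRCm38 and counted per gene with featureCounts 1.45 (Subread), per the submitters' processing notes. The sources used here do not give the strand setting, the treatment of multi-mapping reads or the release of the annotation. The deposited tables hold raw counts per Ensembl gene, with the authors' CPM and RPKM beside them. The deposited CPM equalled the count scaled to the library total, within 2.5e-11, and the deposited RPKM equalled CPM per kilobase, within 4.7e-11. The library totals of 15814525 to 19533034 set the counting precision, and the floor for a count of 0 is 3 counts, which covers counting error only.

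Symbols were attached by Ensembl identifier from a reference table of gene names (97.26% of genes). Of the other gene lists used, 1 symbol, Vamp7, had no row.

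Counts were fitted in R 4.3.3 with edgeR 4.0.16 (with limma 3.58.1; quasi-likelihood, robust, prior count 2) after its expression filter, which left 15103 genes, with TMM factors, a term per group and an additive block per experiment. The 4 groups shared 1 estimate of the spread (common biological coefficient of variation 5.24%). P-values were Benjamini-Hochberg adjusted over all genes, with a threshold of 0.05. The code was also run on simulated counts with 200 changed genes. These had the same dispersion for every gene and no experiment effect, so that run says nothing about the block. The experiment labels pair the libraries: residuals from the group means correlated between libraries of the same experiment (r 0.223 to 0.612, 24 pairs, across genes) more than between those of different experiments (r -0.333 to 0.278). No 2 replicates agreed within sampling noise (chi-square over degrees of freedom 2.85 or more).

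The members, the other lists and the tests were chosen with earlier results of these data known. Genes to be given in every comparison were Syt1, Stx1a, Snap25, Vamp2, Cplx1, Cplx2, Unc13a, Rims1, Slc17a7 and Slc17a6. To these were added, per comparison, the 6 highest and 6 lowest fold changes among called members with the same sign under all 4 experiment labels and a mean of at least 1 CPM, and other members were given side by side within a role. Alternatives were RLE, upper-quartile and no scaling, no filter, no block, a block by title number, a fit of the 2 groups alone, DESeq2 1.42.0, and leaving out each library.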

Additional observations from a re-analysis of the deposited data

Results flagged for a closer look

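Among the 31 named genes, 8 of 124 gene and group combinations had 1 library set apart from the other 3 by more than Dixon's 95% criterion for 4 values (the gap to the nearest value over the whole range), where chance gives about 1 in 20. In 3 of them the library was that of exp108 in 25Q control neurons, each time the lowest: Syt1 had 1225 CPM there, against 1464 to 1468 CPM in the other 25Q control libraries, Cplx2 had 836 CPM, against 1003 to 1031 CPM, and Rims1 had 142 CPM, against 178 to 186 CPM.

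The other 5 were spread over several libraries. With Twist1 shRNA 1, the exp107 library had the lowest Cplx1 level, at 478 CPM against 572 to 589 CPM in the others, and the highest Doc2a level, at 22.5 CPM against 15.1 to 16.0 CPM. In the exp108 library of that hairpin Rims3 had 68.7 CPM, against 79.6 to 81.7 CPM, and Snap25 had 619 CPM, against 664 to 669 CPM. In 72Q control neurons Synpr was highest in exp109a, at 13.8 CPM against 10.3 to 10.8 CPM.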

How the results depend on the processing

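Without scaling, the number of genes that rose was 14 in place of 7 in 72Q control over 25Q control neurons, 26 in place of 17 with shRNA 2 over 72Q control, 25 in place of 15 with shRNA 1 over 25Q control, and 16 in place of 10 with shRNA 2 over 25Q control. That setting moved the median of all genes by 0.133 in 72Q control, 0.124 in shRNA 1 and 0.205 in shRNA 2 over 25Q control (log2), and by less than 0.1 in the other comparisons. Without the replicate block by experiment, 11 rose and 9 fell, in place of 17 and 14, with shRNA 2 over 72Q control, 8 rose, in place of 15, with shRNA 1 over 25Q control, and 6 rose, in place of 10, with shRNA 2 over 25Q control. Calls over all 15103 genes went down too, to 3621 in place of 6307 with shRNA 2 over 72Q control. Over 25Q control they were 6499 in place of 8671 with shRNA 1, and 7630 in place of 9556 with shRNA 2. The cause was not tested. All other counts of members under these and the other alternatives were within 1.5 times the reported ones.

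Leaving out single libraries gave 6 to 7 risen and 29 to 32 fallen for 72Q control over 25Q control, 25 to 30 and 7 to 9 for shRNA 1 over 72Q control, 15 to 19 and 13 to 15 for shRNA 2 over 72Q control, 26 to 28 and 10 to 13 for shRNA 1 over shRNA 2, 13 to 16 and 22 to 25 for shRNA 1 over 25Q control, and 8 to 10 and 30 to 34 for shRNA 2 over 25Q control.

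Apart from the genes given in every comparison, named genes were picked by calls and fold changes in these same libraries, which favours stable calls. Over the named genes, 1728 of 1792 values under an alternative stayed on their side of the threshold, 48 lost the call, 14 gained one in the same direction and 2 were called with the opposite sign. These 2 arose without scaling, for Cplx1 in 72Q control over 25Q control (0.121) and Snap25 in shRNA 2 over 25Q control (0.116). A further 9 values that were called in neither setting changed sign near 0 (-0.030 to 0.049). Outside the named results, Rab3c, Pclo and Syn1 turned from lower to slightly higher and were no longer called without scaling in shRNA 2 over 25Q control neurons (0.059, 0.0035 and 0.037). Among the named results, calls lost without the replicate block and not mentioned above were those of Vamp2 in both hairpins over 72Q control and of Cplx2 and Sv2c in shRNA 1 over 25Q control. Members outside the named results lost calls in that setting too, as the counts above show, and these are not listed gene by gene. Slc17a6 in shRNA 1 over 25Q control was lost under 10 alternatives, namely upper-quartile factors, no scaling, either change of the replicate block, the fit of 2 groups, DESeq2, and leaving out each of 4 libraries (exp107 and exp109a of shRNA 1, exp107 and exp109b of 25Q control). Snap25 between the hairpins was lost under 8. Among the named results, a block by title number ended the calls of Doc2b and Syt2 over 72Q control (shRNA 1 and shRNA 2), of Snap25 between the hairpins and of Slc17a6 in shRNA 1 over 25Q control.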
